A study of Mus musculus with 8 samples.

Results

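Transcripts of 9 genes that mark lymphocytes were measured in a population that had been sorted to be myeloid. The genes were Cd3d, Cd3e and Cd3g of the T cell receptor complex, the costimulatory receptor gene Icos and the coreceptor gene Cd8a. The others were the protease gene Gzmb and the B cell genes Cd79a, Cd79b and Ms4a1. All 9 were found by name among the gene spots of the arrays, through the symbol or the RefSeq accession of each probe. They were covered by 10 of 60273 probes, Ms4a1 by 2 and each other gene by 1, and they are 9 of 47242 distinct names on the array.

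The cells came from mouse bone marrow chimeras. Wild-type hosts carried DsRed-labelled marrow from Selplg wild-type donors (labelled Psgl1+/+, replicates 1 to 4) or from Selplg knockout donors (labelled Psgl1-/-, replicates 5 to 8), so host cells were wild-type and marrow cells carried DsRed in both groups. Selplg encodes PSGL-1, a selectin-binding glycoprotein of leukocytes. A cerebral artery was closed for 30 min and reopened, and the ischemic brain was taken at day 7. Cells caught on CD11b beads were sorted as live, DsRed+, CD11b+, CD45hi, Ly6G- and CD3-. The sources used here give neither the age of the mice nor how many animals stand behind a sample, so the p-values refer to the spread among the 8 samples, which may be technical. With bulk RNA, fewer cells of a type and less RNA per cell cannot be told apart.

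The T cell receptor recognises antigen through its variable chains and signals through the CD3 chains, with CD8 as a coreceptor on cytotoxic T cells and ICOS as a costimulatory receptor on activated T cells. Granzyme B is a serine protease that cytotoxic T cells and NK cells release into their targets, and it is also known in mast cells, basophils and plasmacytoid dendritic cells. The B cell receptor signals through the CD79a and CD79b chains, and Ms4a1 encodes CD20 of the B cell membrane. The gate left out cells with CD3 on their surface, and no B cell or NK cell marker was part of it.

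Probes on which results turn are shown first, each as the opening 30 bases of the deposited probe sequence, written 5′ to 3′, with runs of 3 or more G in capitals. The Ms4a1 pair is shown because the probes of this gene disagree, and Icos and Cd79a because their scaled values separate the groups.
Ms4a1, Ensembl transcript probe: tgcctggagaggatGGGGaggtGGGaggag
Ms4a1, RefSeq probe: gtttagagagcttccaagacacatagttac
Icos: actctgttccttgaaggatccccattccca
Cd79a: catatgtctgactccagcatccctgcctcc
Among the stretches shown, only that of the Ensembl transcript probe of Ms4a1 has G runs, and its longest run, of 4 G, was shared by 8.27% of all probes as printed, while GGG occurred in 31.3% of them. The probes of Cd3d, Cd3g and Cd8a hold a run of 3 G outside their first 30 bases, and the other 6 probes hold none. The 10 probes were 47 to 54 bases long, with a GC content of 42.6 to 59.6%, against medians of 51 bases and 44.4% over all probes. The Cd79a probe had the highest GC content of the set. The deposited annotation placed the Ensembl transcript probe of Ms4a1 on chromosome 19 of build mm9, from 11324393 down to 11324334. The exon or UTR in which each probe lies was not analysed here.

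All values below are processed signals of 8 arrays, 4 per group, that lay on 1 slide. A probe was well above background where the scanner software marked it so. Of the gene spots, 76.1 to 88.2% were well above background on each array. Arrays in slide row 2 (wild-type replicates 1 and 3, knockout replicates 5 and 7) had a wider background than arrays in row 1. The 99th percentile of the 308 negative controls was 33.7 to 56.2 in row 2 and 3.18 to 4.53 in row 1. The signal at the 75th percentile of each array was 518 to 747 in wild-type and 832 to 957 in knockout samples, so the groups did not overlap in the quantity used for scaling. After scaling, the median difference of all 42432 tested genes, knockout minus wild-type, was -0.33 on the log2 scale. The wild-type arrays filled columns 1 and 2 of the slide and the knockout arrays columns 3 and 4, so column and genotype cannot be told apart. Selplg had 1 probe, with signals of 6539 to 38319 in wild-type and 9636 to 12961 in knockout samples. Which part of Selplg was deleted is not stated, so this probe checks nothing about the labels. The gate genes Itgam (CD11b) and Ptprc (CD45) and the myeloid genes Csf1r and Lyz2 were well above background on 8 of 8 arrays. So were 34977 of the 42432 tested genes, so the flag alone says little about the gate. Ptprc signals were uneven. They were 402 to 808 on wild-type replicates 1 and 2 and knockout replicates 5 and 8. On wild-type replicates 3 and 4 and knockout replicates 6 and 7 they were 7692 to 10621.

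All 9 lymphocyte genes were tested, and each had a probe well above background on 8 of 8 arrays. The same held for 34977 of the 42432 tested genes, so this flag sets the 9 genes little apart. None passed the test between genotypes after Benjamini-Hochberg adjustment over all tested genes (limma, adjusted p 0.454 to 0.871). Of all tested genes, 0.00236% passed it. The 9 differences were all negative, with a median of -0.63 on the log2 scale, beside a median of -0.33 and 69.2% negative differences over all tested genes. At an unadjusted p under 0.05, 4 of 9 (Icos, Gzmb, Cd79a and Cd79b) were lower in the knockout samples, against 9.37% of all tested genes in that direction and 11% in either. For Icos and Cd79a, 2 of 9, all knockout arrays lay below all wild-type arrays after scaling, which was so for 10.8% of all tested genes.

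**Figure D1:**
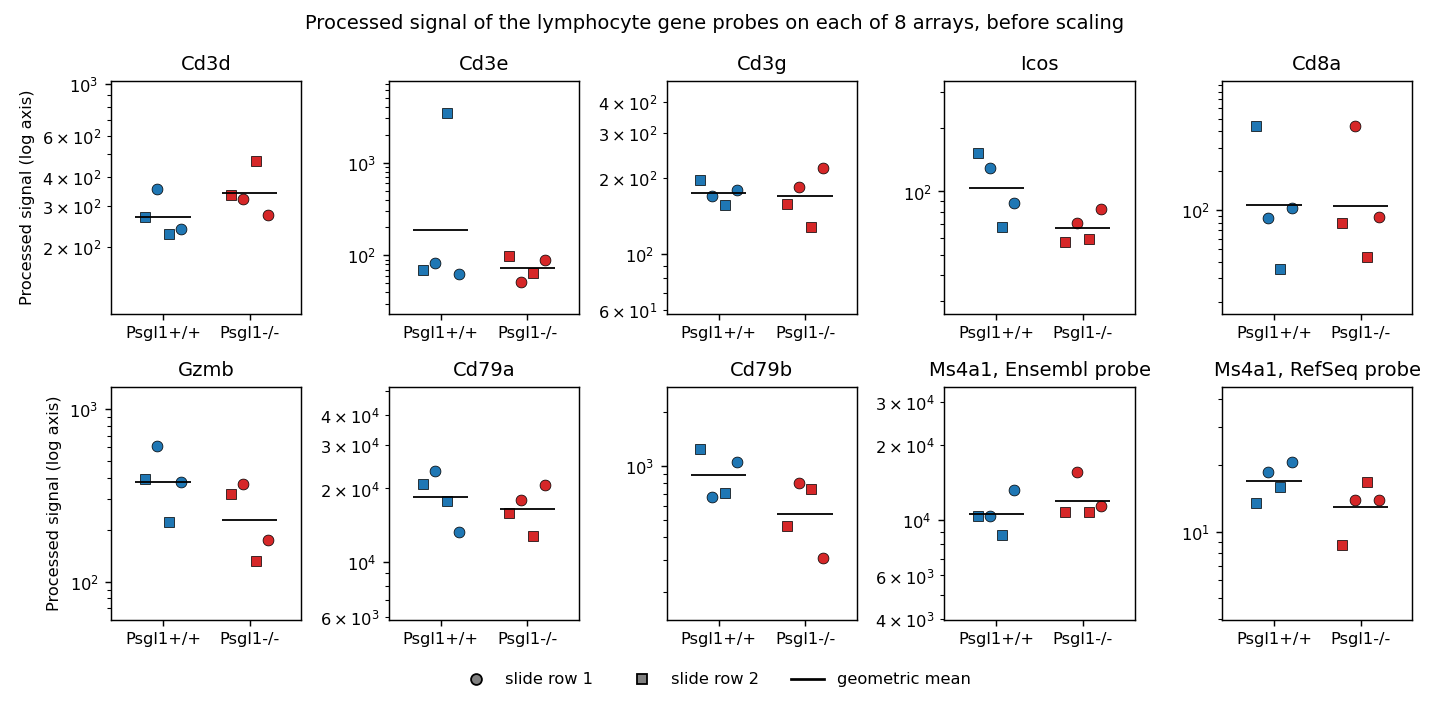
Processed signal before scaling (log axis) of the 10 probes of the lymphocyte genes, on each wild-type (blue) and knockout (red) array, with slide row 1 as circles, slide row 2 as squares and the geometric mean of each group as a line. Before scaling the groups overlap for each probe, and Cd3e on wild-type replicate 3 (3428) stands far from the other 7 arrays (51.9 to 98.6).

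The 3 CD3 chains did not share a pattern over the arrays. Cd3d encodes the delta chain. Its signals were 268, 355, 228 and 239 in wild-type replicates 1 to 4 and 333, 321, 469 and 273 in knockout replicates 5 to 8. Knockout replicate 7 had the highest signal and the groups overlapped. After scaling, the difference was -0.12 ± 0.28 (log2, SE, n = 4 and 4, limma adjusted p = 0.871), and it turned positive with other scalings (0.034 with the array median, 0.16 with cyclic loess and 0.35 with none).

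Cd3g encodes the gamma chain. Its signals were 196, 169, 157 and 179 in wild-type and 158, 184, 128 and 219 in knockout samples. The groups overlapped, and both the highest and the lowest signal were in knockout samples. The scaled difference was -0.51 ± 0.26 (log2, SE, n = 4 and 4, limma adjusted p = 0.465). Over all 8 arrays the scaled values of Cd3d and Cd3g spanned 0.98 and 1.17 on the log2 scale, and 91.9% and 84.8% of tested genes spanned more.

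Cd3e encodes the epsilon chain, which the antibody against CD3 in common mouse sorting panels recognises. Its signals were 70.4, 82.7, 3428 and 62.6 in wild-type and 98.6, 51.9, 65.2 and 89.5 in knockout samples. Wild-type replicate 3 was 46.6-fold above the second highest array after scaling, and the other 7 arrays overlapped between the groups. On the row 2 arrays other than wild-type replicate 3, the signal was 1.75 to 1.92 times the 99th percentile of the negative controls. The difference was -1.81 ± 1.28 (log2, SE, n = 4 and 4, limma adjusted p = 0.552), and it was -0.40 ± 0.31 without wild-type replicate 3 (limma adjusted p = 0.567). On that array the signal of Cd3d before scaling, 228, was the lowest of all 8 and that of Cd3g, 157, lay inside the range of the other arrays. After scaling, the array ranked 6 of 8 from the top for Cd3d and 3 of 8 for Cd3g. A peak of more than 16-fold on a single array occurred in 1604 tested genes (3.78%), 167 to 232 per array and 218 on wild-type replicate 3.

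Cd8a encodes the alpha chain of the CD8 coreceptor and is also known in a subset of dendritic cells. Its signals were 440, 87.5, 35.5 and 103 in wild-type and 79.2, 436, 44.0 and 89.0 in knockout samples. One array of each genotype, wild-type replicate 1 and knockout replicate 6, stood apart from the rest, which lay at 103 or less. The lowest signals of each group, on wild-type replicate 3 and knockout replicate 7, were 1.06 and 1.27 times the 99th percentile of the negative controls. The difference was -0.48 ± 0.92 (log2, SE, n = 4 and 4, limma adjusted p = 0.834). It was 0.15 when wild-type replicate 1 was left out, -1.16 when knockout replicate 6 was, and 0.50 within slide row 1 and -1.47 within row 2.

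Icos had the smallest p of the 9 genes. Its signals were 153, 129, 67.4 and 88.5 in wild-type and 57.4, 70.9, 59.1 and 82.3 in knockout samples. Before scaling, wild-type replicate 3 lay inside the knockout range. After scaling, all 4 knockout arrays lay below all 4 wild-type arrays, from -3.90 to -3.54 against -3.18 to -2.16 (log2 relative to the 75th percentile). The scaled mean was 2.16-fold higher in wild-type than in knockout samples, a difference of -1.11 ± 0.28 (log2, SE, n = 4 and 4, limma adjusted p = 0.454). The p before adjustment was 0.00474.

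The Icos difference was -1.03 within slide row 1 and -1.19 within slide row 2, and its unadjusted p was 0.00767 with the row as a block. Its unadjusted p stayed at 0.0144 or less when any 1 array was left out. The difference was smaller under the other scalings, at -0.74 with cyclic loess, -0.55 with normexp and -0.64 with no scaling, where its unadjusted p was 0.0822. On the row 2 arrays its signals were 1.02 to 4.19 times the 99th percentile of the negative controls, and on the row 1 arrays 15.6 to 35.4 times. Signals of the gene for its ligand, Icosl, ran from 33.5 to 134 in wild-type and 31.4 to 405 in knockout samples, and the groups overlapped (limma adjusted p = 0.943).

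Gzmb signals were 395, 609, 223 and 379 in wild-type and 321, 367, 132 and 174 in knockout samples. Wild-type replicate 3 lay among the knockout values, so the groups overlapped, and knockout replicates 7 and 8 were the lowest of all 8. The scaled mean was 2.29-fold higher in wild-type, a difference of -1.19 ± 0.44 (log2, SE, n = 4 and 4, limma adjusted p = 0.454). The p before adjustment was 0.0271. It was -1.48 within slide row 1, -0.91 within row 2 and -0.73 with no scaling. Without any 1 of 5 arrays (wild-type replicates 1, 2 and 4, knockout replicates 7 and 8) the unadjusted p rose to between 0.0505 and 0.0707.

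Lists of other cell types that can carry granzyme B or CD8 also had negative median differences, beside -0.33 for all tested genes. Of basophil and mast cell genes 9 were listed and 8 tested, Gzmb among them. Their summed scaled signal was 10.8 to 40.2 in wild-type and 7.19 to 13.0 in knockout samples. The median difference was -0.66 with Gzmb, and without Gzmb the middle value was that of Gata2, -0.41. The 40.2 was on wild-type replicate 4, and the other wild-type arrays lay at 10.8 to 16.5. With Gzmb included, the list median minus that of all tested genes was -0.43 to -0.32 over the 7 scalings. In 10 tested genes of conventional and migratory dendritic cells (Cd8a among them) the sum was 6.60 to 24.5 and 4.29 to 7.98. The median difference was -0.63, and without Cd8a the middle value was that of Ccr7, also -0.63. Here too the highest sum was on wild-type replicate 4, and the other wild-type arrays lay at 6.60 to 13.2. Minus the median of all tested genes, the list median was -0.37 to -0.29 over the 7 scalings. In 9 tested genes of plasmacytoid dendritic cells the sum was 66.3 to 106.7 and 54.9 to 71.2, carried mostly by Siglech. Of their differences 5 were negative and 4 positive, those of Tcf4 (4.09), Ccr9 (1.31), Bst2 (0.93) and Irf8 (0.70). The median difference was -0.40, and it turned to 0.07 with no scaling. That median lay 0.06 to 0.14 above the median of all tested genes with normexp, the deposited value table or quantile normalization. None of these genes passed the adjusted threshold. The part of these cells in the Gzmb and Cd8a values was not tested.

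**Figure D2:**
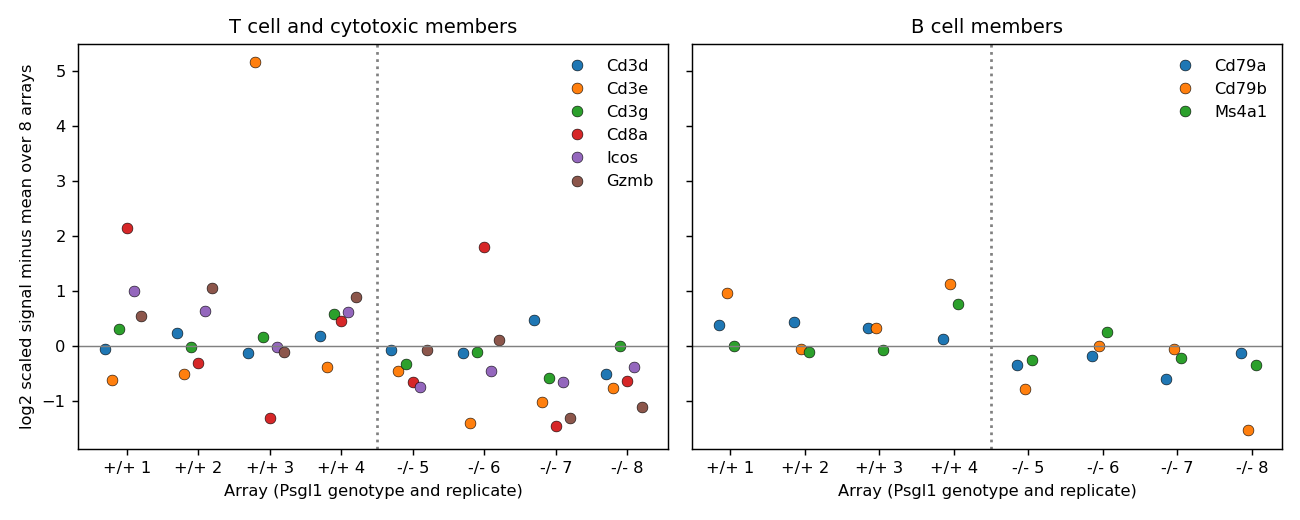
Scaled log2 signal of each lymphocyte gene minus its own mean over the 8 arrays, for T cell and cytotoxic genes (left) and B cell genes (right, Ms4a1 by its Ensembl transcript probe). Cd3e on wild-type replicate 3 lies 5.15 above its mean, Cd8a stands out on wild-type replicate 1 (2.14) and knockout replicate 6 (1.79), and no array is high for all genes.

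Among the B cell genes, Cd79a had signals of 20920, 23560, 17841 and 13281 in wild-type and 15819, 17978, 12796 and 20580 in knockout samples. Before scaling the groups overlapped widely, and knockout replicate 8 exceeded 2 of 4 wild-type arrays. After scaling, the knockout arrays lay at 3.94 to 4.43 and the wild-type arrays at 4.68 to 4.98 (log2 relative to the 75th percentile), without overlap. The difference was -0.63 ± 0.23 (log2, SE, n = 4 and 4, limma adjusted p = 0.454). The p before adjustment was 0.0265, and it was 0.0502 to 0.0644 without any 1 of 5 arrays (wild-type replicates 1, 2 and 3, knockout replicates 5 and 7). With no scaling it was -0.16, and with quantile normalization or cyclic loess the groups overlapped again. Its scaled values spanned 1.04 on the log2 scale, and 90% of tested genes spanned more.

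Cd79b encodes the partner chain of Cd79a. Its signals were 1246, 668, 706 and 1050 in wild-type and 465, 799, 743 and 306 in knockout samples. Knockout replicates 5 and 8 were the lowest arrays and replicates 6 and 7 lay between the wild-type values. The scaled mean was 2.27-fold higher in wild-type, a difference of -1.19 ± 0.45 (log2, SE, n = 4 and 4, limma adjusted p = 0.454). The p before adjustment was 0.0305. It was -1.31 within slide row 1, -1.06 within row 2 and -0.72 with no scaling. Without any 1 of 4 arrays (wild-type replicates 1 and 4, knockout replicates 5 and 8) the unadjusted p was 0.0669 to 0.0761. The array order of the CD79 partners differed: knockout replicate 8 was the lowest of all 8 arrays for Cd79b and the highest scaled knockout array for Cd79a.

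The probes of Ms4a1 disagreed on whether the gene was detected. The Ensembl transcript probe read 10416, 10422, 8759 and 13215 in wild-type and 10799, 15571, 10790 and 11396 in knockout samples, and it was well above background on all 8 arrays. The RefSeq probe read 13.4, 18.6, 15.9 and 20.6 in wild-type and 8.72, 13.9, 16.8 and 13.8 in knockout samples. It was well above background on all 4 arrays of slide row 1 and on none of row 2, where its signals were 0.16 to 0.48 times the 99th percentile of the negative controls. The groups overlapped with both probes.

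The Ensembl transcript probe, which had the higher mean and entered the fit, gave a difference of -0.29 ± 0.29 (log2, SE, n = 4 and 4, limma adjusted p = 0.683). It turned positive with cyclic loess (0.075) and without scaling (0.18). The RefSeq probe gave -0.85 ± 0.34 in a fit of all 60271 probes with values in both groups and without the background filter (log2, SE, limma adjusted p = 0.536). Its limma p before adjustment was 0.0375. The count of genes at an unadjusted p under 0.05 uses the Ensembl transcript probe, so for Ms4a1 it depends on the choice of probe. For the Ensembl transcript probe, wild-type replicate 4 was the highest scaled array, and without it the difference was -0.08.

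**Figure D3:**
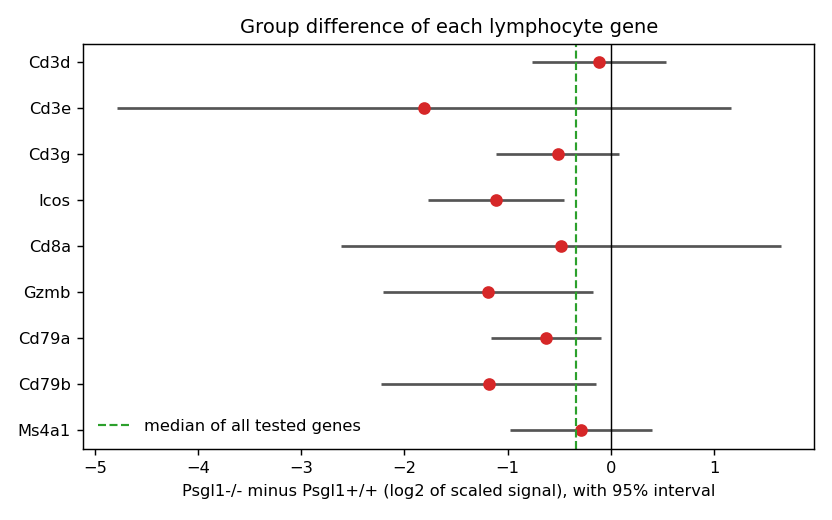
Knockout minus wild-type difference of each lymphocyte gene (log2 of scaled signal, points) with its 95% confidence interval from limma (lines), the median of all tested genes (dashed, -0.33) and 0 (solid). All 9 points lie below 0 and 7 lie below the median of all tested genes; the intervals of Icos, Gzmb, Cd79a and Cd79b exclude 0.

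The scaling set how many of the 9 genes differed at an unadjusted p under 0.05. The count was 4 with the 75th percentile, 3 with quantile normalization, the array median, the deposited value table or normexp (Icos, Gzmb and Cd79b), 2 with cyclic loess (Icos and Gzmb) and 0 with no scaling. Over the same settings the median of all tested genes moved from -0.33 to 0.13, and the share of all tested genes with an unadjusted p under 0.05 ranged from 4.82 to 11%. Relative to that median, 7 of 9 genes were below it under each of the 7 scalings. The median of the 9 genes minus that of all tested genes was -0.30 to -0.15. The groups of Icos did not overlap with the 75th percentile, the array median, quantile normalization, normexp or cyclic loess, and those of Cd79a with the first 2 of these. All knockout arrays lay below all wild-type arrays in 10.8, 6.19, 5.24, 5.1 and 2.51% of tested genes under these 5 scalings, in the same order.

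**Figure D4:**
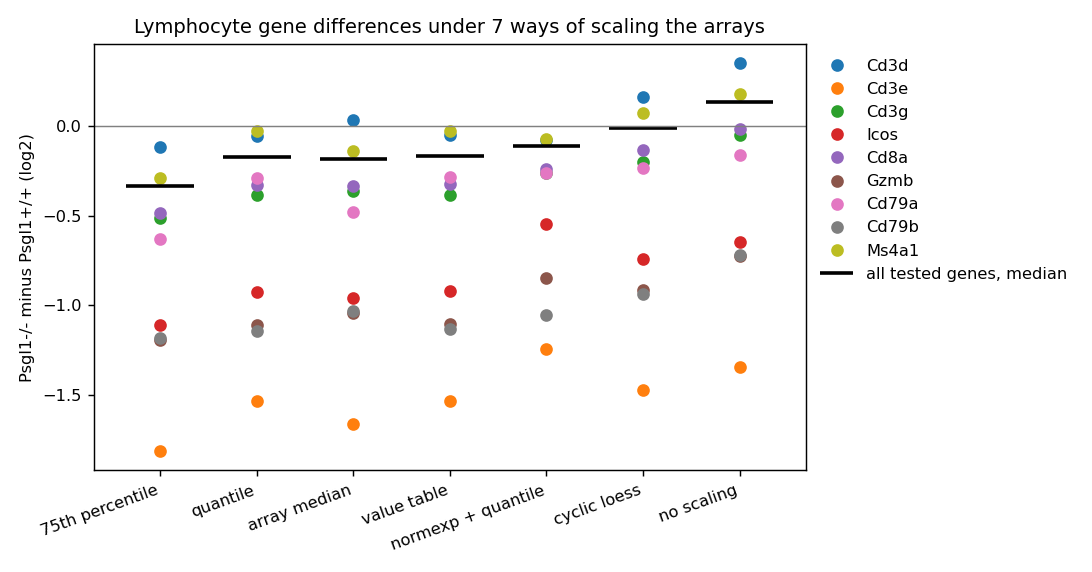
Knockout minus wild-type difference of the 9 lymphocyte genes (log2, points) under 7 ways of scaling the arrays, with the median of all tested genes as a bar. The points move with the bar, which runs from -0.33 with the 75th percentile to 0.13 with no scaling, and Cd3d and Ms4a1 end above 0 with cyclic loess and with no scaling.

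Other genes of the lymphocyte pathways were read from 7 lists with 117 entries, of which 104 were on the array and 98 were tested. The constant regions of antibodies and T cell receptors on these lists (such as Ighm, Igkc and Trac) had no probe of that name. None of the 98 passed the adjusted threshold. At an unadjusted p under 0.05, 5 were lower and 2 higher in the knockout samples. Of all 42432 tested genes, 3974 (9.37%) were lower and 683 higher. After scaling, all knockout arrays lay below all wild-type arrays for 8 of the 98 and above them for 1. Over all 42432 tested genes these counts were 4601 (10.8%) and 272. The median difference was -0.26 beside -0.33 for all tested genes. The medians of the T cell, B cell and NK lists were negative after scaling to the 75th percentile and turned positive under at least 1 other scaling (highest values 0.04 to 0.43), and that of the cytotoxic granule list was positive under all 7 scalings (0.20 to 0.66). Medians below are those after scaling to the 75th percentile.

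In the list of T cell receptor signalling, 11 genes were tested, 9 of them with a negative difference, and the median was -0.40. Lck, the kinase that starts T cell receptor signalling, was well above background on 5 of 8 arrays, with signals of 14.7 to 36.4. Cd247, the zeta chain of the receptor complex, read 328 to 2426 in wild-type and 413 to 2368 in knockout samples. Zap70, the kinase that binds it, read 366 to 833 and 316 to 1204. Cd4 read 2867 to 6071 and 3018 to 4537, and Cd8b1, the partner chain of Cd8a, 435 to 754 and 417 to 788. These genes overlapped between the groups (limma adjusted p 0.491 to 0.980).

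Of 20 tested genes of T cell surface and costimulation, 16 had a negative difference, with a median of -0.42. Cd2, an adhesion receptor of T and NK cells, read 441 to 716 in wild-type and 604 to 1423 in knockout samples. Cd28, the costimulatory receptor related to ICOS, was high on 3 arrays, wild-type replicates 2 and 4 and knockout replicate 6 (339, 743 and 576), and at 18.6 to 50.1 on the other 5. Of the T cell transcription factors, 7 of 9 were tested, Bcl11b and Lef1 being well above background on 2 and 1 arrays, and the median was -0.43.

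The B cell lists had medians closer to 0 than the differences of Cd79a and Cd79b. The 12 tested genes of B cell receptor signalling had a median difference of -0.04, with 7 negative and 5 positive. Btk, a kinase that B cells and myeloid cells share, read 157 to 359 in wild-type and 583 to 3085 in knockout samples, which did not overlap. After scaling, 272 of the 42432 tested genes had all knockout arrays above all wild-type arrays. The difference of Btk was 2.12 ± 0.52 (log2, SE, limma adjusted p = 0.454). Pax5, the B cell transcription factor, read 134 to 297 in wild-type and 251 to 589 in knockout samples. The 18 tested genes of B cell surface and transcription had a median of -0.19. Ms4a4c, a relative of Ms4a1 known in myeloid cells, had the smallest p of them, with a difference of -3.82 ± 1.29 (log2, SE, limma adjusted p = 0.454).

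In the NK cell list, 13 genes were tested, with 9 negative differences and a median of -0.60. That median was 0.01 to 0.05 with quantile normalization, the deposited value table or normexp, 0.16 to 0.18 above the median of all tested genes. The summed scaled signal of the list, 162.5 to 279 in wild-type and 120.3 to 137.7 in knockout samples, was carried by the probes of Tbx21 and Cd160 (mean scaled log2 signals of 6.64 and 6.54 in wild-type samples, the other 11 genes at 1.58 or less), so it does not describe the list. Tbx21, the T-bet factor, had the smallest p of the list, with signals of 55179 to 75527 in wild-type and 51629 to 57937 in knockout samples and a difference of -0.70 ± 0.27 (log2, SE, limma adjusted p = 0.454). The difference of Tbx21 was -0.21 with cyclic loess and -0.11 to -0.09 with normexp, quantile normalization or the deposited value table. Ncr1, the defining receptor of NK cells, read 169 to 670 and 265 to 1304, and Nkg7, a granule membrane protein, 1280 to 3300 and 1377 to 2154.

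The cytotoxic granule list had a positive median, while the difference of Gzmb was negative. Of its 17 tested genes, 11 had a positive difference, with a median of 0.20. Prf1, which encodes the pore former perforin, read 69.9 to 181 in wild-type and 79.0 to 332 in knockout samples. Gzma, which encodes granzyme A, read 70.1 to 243 and 107 to 572. Neither passed the test (limma adjusted p = 0.808 and 0.919). Serpinb6b, a serpin, had the smallest p of the list, with a difference of -0.46 ± 0.23 (log2, SE, limma adjusted p = 0.468). In the list of ICOS ligand and the B7 family, 6 genes were tested, with a median of -0.16. The smallest p there was that of Cd274 (PD-L1), with signals of 158 to 1977 in wild-type and 780 to 13120 in knockout samples (limma adjusted p = 0.585).

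**Figure D5:**
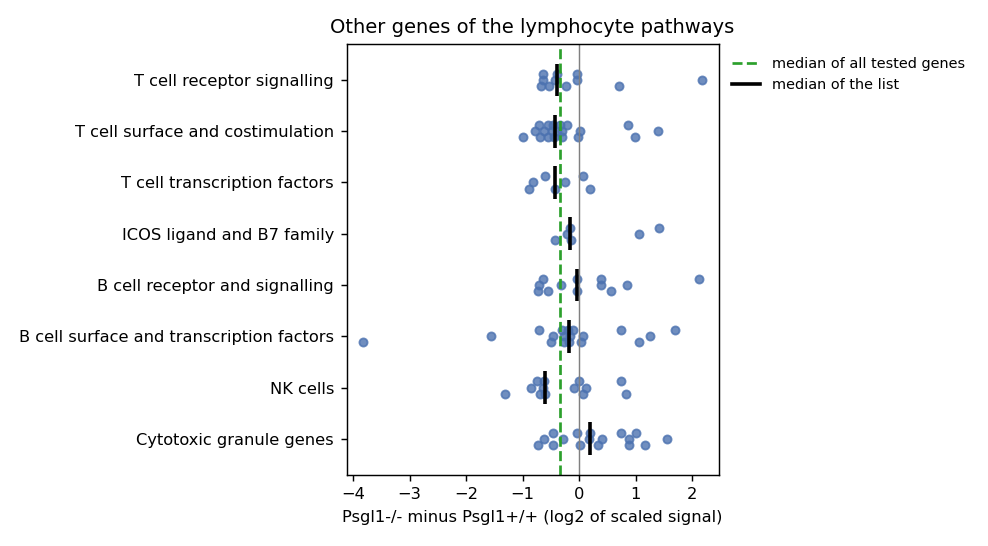
Knockout minus wild-type difference (log2 of scaled signal) of each tested gene of the 7 lymphocyte lists and of the ICOS ligand and B7 list (points), with each list's median (black bar) and the median of all tested genes (dashed, -0.33). List medians run from -0.60 for NK cells to 0.20 for cytotoxic granule genes, and no gene shown passed the adjusted threshold.

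Lists of other cells were read the same way. Under all 7 scalings the medians of the myeloid, neutrophil and microglia lists were positive and that of the neuronal list was negative, while those of the astrocyte, oligodendrocyte, endothelial and erythroid lists turned positive under at least 1. The 16 genes of the gate and of myeloid identity had a median of 0.27, the 10 neutrophil genes 0.56 and the 8 microglia genes 0.07. Of the 16, 9 differences were positive and 7 negative, those of Itgam, Ptprc, Csf1r and Lyz2 among the negative ones. The scaled log2 signals of the 16, each minus its own mean over the arrays, were averaged per array. This level ran from -1.14 to 0.74 in wild-type and -0.73 to 1.38 in knockout samples, so the groups overlapped widely. The levels of the neutrophil and microglia lists overlapped too. The genes of neurons (7 tested) and of endothelium (5) had medians of -0.58 and -0.28. Medians were -0.24 for astrocytes (5 tested), -0.27 for oligodendrocytes (6) and -0.17 for erythroid cells (5). The neuronal median was -0.11 to -0.05 with quantile normalization, the deposited value table, normexp, cyclic loess or no scaling, and with the first 3 it lay 0.06 above the median of all tested genes. The summed scaled signal of the neuronal genes, 192.8 to 301.3 in wild-type and 132.8 to 170.3 in knockout samples, was carried by the probes of Snap25 and Syt1 (mean scaled log2 signals of 6.88 and 6.56 in wild-type samples, the others at 3.63 or less). None of these genes passed the adjusted threshold. The part of carried-over brain RNA in the lymphocyte values was not tested.

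The genes whose pattern over the 8 arrays was most like each lymphocyte gene were found by the root mean square difference of centred log2 values among 25619 tested genes with a symbol. Nearest to Icos were Ptpn7 (0.19) and Gm32305 (0.20), and nearest to Gzmb were Gm30900 (0.20) and Gm29959 (0.21). Nearest to Cd79b were Gm31828 (0.26) and Ttll9 (0.28). Cd79a was followed by 4930471C04Rik (0.08) and Oit3 (0.09), Ms4a1 by Ikbip (0.09) and Spdye4a (0.09), and Cd3d by Cyp2d12 (0.09) and Spata31d1c (0.10). Cd3g lay nearest to C6 (0.09) and Fto (0.09), and Cd3e to 1700041I07Rik (0.19) and Abcg3 (0.24). The largest distances were those of Cd8a, to Gm15908 (0.38) and Ahsg (0.40). These distances are not adjusted for how far a gene's values spread, so they do not rank the genes by likeness. The scaled values spanned 3.60 on the log2 scale for Cd8a and 0.98 to 1.17 for Cd3d, Cd3g, Cd79a and Ms4a1. None of the 9 lymphocyte genes was among the 2 nearest genes of another.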

How the data were processed

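Sorted-cell RNA was labelled with Cy3 from random primers and hybridised to 8 Agilent single-colour arrays, per the labels' protocols. The deposited scanner files hold spot intensity on a linear scale, corrected by the authors' Feature Extraction software for background but not scaled between arrays, per the file headers. The deposited value table also holds linear intensity, with the same sorted values in each column (median 133). It is an alternative here.

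Control and outlier spots were left out and spots of a probe averaged. The log2 intensity, computed from the deposited values, was reduced by each array's 75th percentile. Of the probes, 67.1% were named through a RefSeq accession or symbol. A gene was its probe with the highest mean, kept if 4 or more of the 8 arrays read it well above background. Differences were fitted with limma 3.58.1 in R 4.3.3 (lmFit and eBayes), two-sided, with Benjamini-Hochberg adjustment over 42432 genes and a threshold of 0.05. The fit was tested on simulated data. Figures used Python 3.11.15 and matplotlib 3.10.9.

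The named genes were the 9 lymphocyte genes, the gene of smallest p in each lymphocyte or ligand list, a fixed set of 20 markers, Selplg and the 2 nearest patterns, some of which are not reported here. Genes and lists were chosen with earlier results of these data known. Alternatives were 6 other sources or scalings of the values, 3 filters, 2 probe rules, slide row as a block or alone, a variance trend and each array left out. The number of arrays limits the precision.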

Additional observations from a re-analysis of the deposited data

Results flagged for a closer look

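In the 20 sets of 4 arrays examined (10 probes in each genotype), 2 held an array far from the other 3, where chance gives about 1 in 20. Cd3e on wild-type replicate 3 had a scaled log2 signal of 2.49, and its gap to the nearest array was 0.96 of the group's range. The Ensembl transcript probe of Ms4a1 on wild-type replicate 4 had a scaled log2 signal of 4.67, with a gap of 0.86 of the range.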

How the results depend on the processing

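None of the 9 lymphocyte genes and none of the other lymphocyte list genes passed the adjusted threshold under any of the 23 alternatives (the count of list genes across them was chosen after seeing the data). Icos, Gzmb, Cd79a, Cd79b, Cd3e and Cd3g had a negative difference in each of them. The difference of Cd3d was positive with the array median (0.034), cyclic loess (0.16), no scaling (0.35) and slide row 2 alone (0.29), and ran from -0.29 to 0.034 with 1 array left out. That of Cd8a was 0.50 in slide row 1 alone and -1.16 to 0.15 with 1 array left out. That of Ms4a1 was 0.075 with cyclic loess and 0.18 with no scaling, and that of Serpinb6b 0.0082 with no scaling. The cause was not tested. Among all tested genes, 1 passed the threshold, against 4 with cyclic loess, 10 with no scaling, 7 when all 8 arrays had to be well above background, 9 when 1 whole group had to be, 6 with the mean of probes, 9 with each probe tested, 2 with slide row as a block, 0 in slide row 1 alone (2014 at an unadjusted p under 0.05), 0 in row 2 alone (1943), 5 with an intensity trend (all limma) and 0 to 10 with 1 array left out. No paired analysis was possible because the groups share no replicate numbers. Signals of Icos, Cd8a and Cd3e near the negative controls of slide row 2 limit their precision there.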
